A study of Mus musculus with 54 samples.

Results

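The genes described here are those whose difference between the ruptured and the unruptured side of the follicle depended on human chorionic gonadotropin (hCG). All 54 libraries of the series entered 1 model, and the quantity tested was the interaction of side and medium: the log2 difference ruptured minus unruptured post-hCG, minus the same difference without hCG. Of 25149 genes in the count table, 10013 had enough counts to be tested and 892 were called (8.91%) by edgeR's quasi-likelihood test at a Benjamini-Hochberg adjusted p (FDR) of 0.05. A gene is called higher where the ruptured side gained relative to the unruptured side post-hCG (426 genes, 4.25% of those tested) and lower where it lost (466 genes, 4.65%).

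Follicles came from CD-1 mice of 14 to 16 days of age and grew in alginate, a hydrogel that keeps the follicle round, for 8 days. They then spent 12 h in maturation medium with or without hCG, which acts at the receptor of luteinizing hormone (LH). Both media also held serum, epidermal growth factor (EGF) and recombinant follicle stimulating hormone. The growth medium of the 8 days before held that hormone too. RNA of single microdissected follicle sides was amplified with Smart-Seq2, a protocol for very small amounts of RNA. The groups were the putative unruptured side without hCG (15 libraries), the putative ruptured side without hCG (14), the unruptured side post-hCG (12) and the ruptured side post-hCG (13). All 4 groups share strain, age range, culture and the removal of the cumulus-oocyte complex, although the sample labels name that complex as the tissue. Without hCG no rupture takes place, so the sides there are the ones presumed to correspond. Enzymatic isolation strips part of the theca, the outer layer of the follicle, before culture. The labels do not say which sides came from 1 follicle, and p-values below measure the spread between libraries.

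The LH surge acts on granulosa cells that follicle stimulating hormone (FSH) has prepared: they stop making estrogen, turn to progesterone, and switch on genes for a hyaluronan matrix, prostaglandins, EGF-like factors and proteases. The follicle wall opens at the apex, while the opposite wall stays intact and becomes part of the corpus luteum. A gene may therefore differ between sides before the surge, after it, or in both states.

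Promoter sequences are shown for 4 called-lower genes with different roles, from 250 bases before to 50 bases after the transcript start, 5′ to 3′ on the gene's strand (RefSeq, GRCm38.p6). Capitals mark the motifs searched on both strands. They are the AP-1 site TGANTCA and the hypoxia core ACGTG in Gfpt2 (chr11:49793905-49794204, + strand), an enzyme that supplies hexosamine for hyaluronan, and the cAMP response element (CRE) core TGACG in Rgs2 (chr1:144004100-144004399, - strand), a brake on G protein signaling. The full CRE TGACGTCA, which contains the core, is marked with the core in Areg (chr5:91139349-91139648, + strand), the EGF-like factor amphiregulin, and the hypoxia core in Slc2a1 (chr4:119108495-119108794, + strand), a glucose transporter.
Gfpt2: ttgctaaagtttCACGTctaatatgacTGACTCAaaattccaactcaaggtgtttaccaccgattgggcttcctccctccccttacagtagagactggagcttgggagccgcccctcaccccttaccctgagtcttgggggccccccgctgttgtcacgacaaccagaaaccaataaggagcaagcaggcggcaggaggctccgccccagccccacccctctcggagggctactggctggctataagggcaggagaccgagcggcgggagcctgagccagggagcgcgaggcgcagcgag
Rgs2: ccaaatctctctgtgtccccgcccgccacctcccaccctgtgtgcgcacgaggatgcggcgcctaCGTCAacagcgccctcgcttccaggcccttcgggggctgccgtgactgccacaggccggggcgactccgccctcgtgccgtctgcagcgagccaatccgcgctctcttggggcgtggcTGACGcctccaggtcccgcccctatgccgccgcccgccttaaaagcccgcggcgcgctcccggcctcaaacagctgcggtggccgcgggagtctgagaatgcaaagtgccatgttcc
Areg: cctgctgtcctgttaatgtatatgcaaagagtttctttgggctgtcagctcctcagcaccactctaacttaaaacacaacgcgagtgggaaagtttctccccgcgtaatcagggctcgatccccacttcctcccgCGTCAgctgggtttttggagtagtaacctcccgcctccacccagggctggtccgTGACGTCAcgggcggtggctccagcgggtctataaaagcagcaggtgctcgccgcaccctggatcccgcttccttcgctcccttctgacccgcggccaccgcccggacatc
Slc2a1: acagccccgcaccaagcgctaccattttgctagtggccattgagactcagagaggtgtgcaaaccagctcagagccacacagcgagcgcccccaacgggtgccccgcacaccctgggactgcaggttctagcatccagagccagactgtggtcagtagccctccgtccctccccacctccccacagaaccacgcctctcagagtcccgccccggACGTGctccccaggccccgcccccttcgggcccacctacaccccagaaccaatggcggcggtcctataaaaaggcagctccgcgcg

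The shares of promoters that hold each motif were of similar size in called genes and in all genes with an entry. Of the 10013 genes tested, 7484 had a promoter entry, among them 336 called lower and 299 called higher. The full CRE was found in 3.82% of all these promoters, in 2.68% of those called lower and in 2.68% of those called higher. The CRE core was in 36.9%, 36.3% and 40.1%, and the hypoxia core, which also lies within the E-box CACGTG, in 30.4%, 29.8% and 33.4%. The AP-1 site was in 5.89%, 6.25% and 7.02%, the E-box in 12.2%, 11.3% and 15.1%, and the NR5A site CAAGGTCA in 1.26%, 1.49% and 0.669%. A match describes letters only and says nothing of binding.

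The genes whose side difference depended on hCG fell into a few shapes. The largest were side differences found only post-hCG and side differences found only without hCG. In the same model the side difference itself passed the test in 1990 genes without hCG (19.9%) and in 1819 post-hCG (18.2%). Among the 892 genes, 391 passed only post-hCG (192 higher, 199 lower) and 341 passed only without hCG (157 higher, 184 lower). In 62 genes both side differences passed in opposite directions (38 higher, 24 lower), and in 31 both passed in the same direction with different sizes (1 higher, 30 lower). The remaining 67 passed in neither medium (38 higher, 29 lower). The median size of the interaction among called genes was 0.89 on the log2 scale, 366 reached 1 and 66 reached 2, against a median standard error of 0.22 over all genes tested. The median interaction of all genes tested was -0.01.

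**Figure D1:**
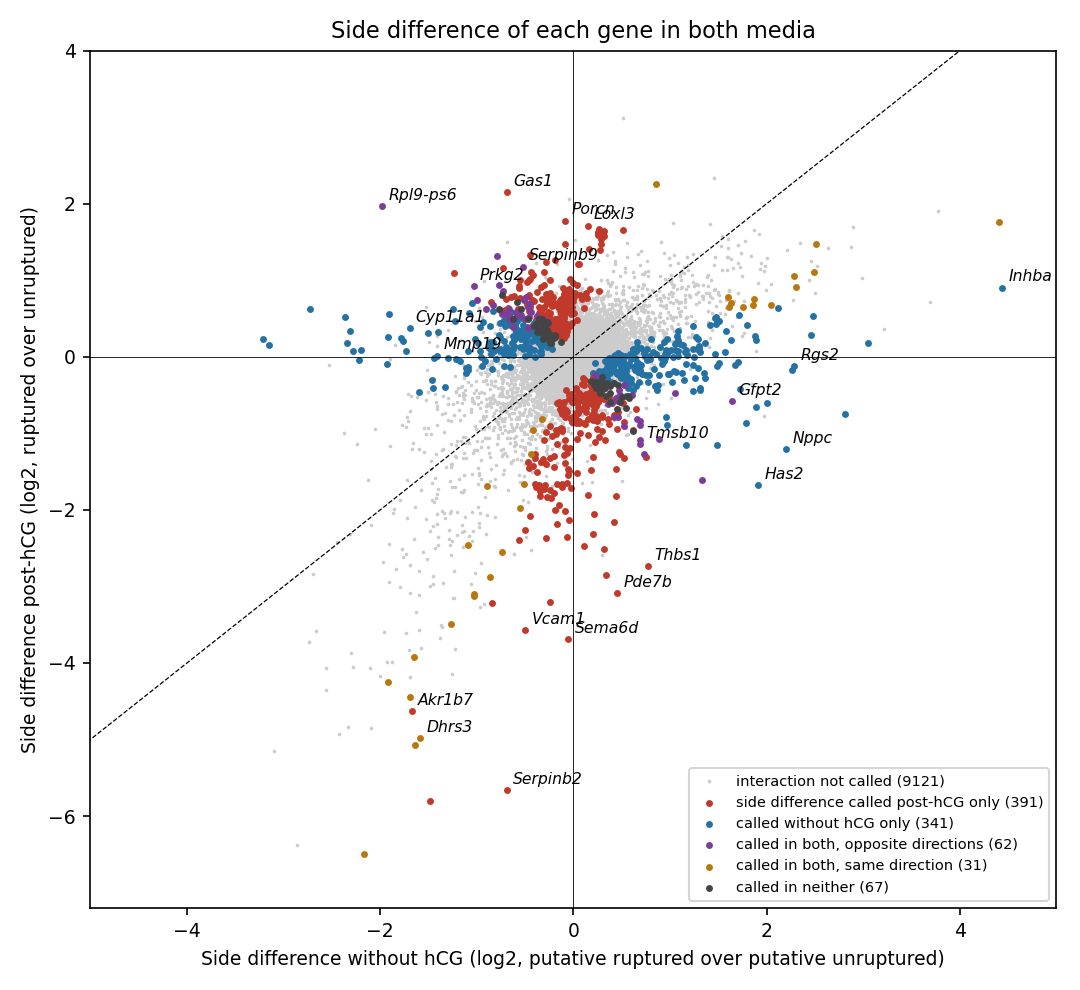
Side difference of each of the 10013 genes tested, without hCG on the x axis and post-hCG on the y axis, both as log2 of the ruptured over the unruptured side. Grey points are genes not called by the interaction and coloured points are the 892 called genes by class; the 391 genes with a side difference only post-hCG lie along the vertical axis, the 341 with one only without hCG along the horizontal axis, and the 62 opposite genes in the upper left and lower right.

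Total counts ran from 1497071 to 2834734 per library, and counting error limits genes near the filter. Their medians were 2362980 and 1744900 without hCG and 2134080 and 2192170 post-hCG, unruptured side first. Median genes detected were 14640 and 13948 without hCG and 14166 and 13768 post-hCG. Theca stroma markers, 15 genes, summed to 319 to 17698 CPM (normalised counts scaled to a common library total; median 3430) in putative unruptured libraries and 250 to 3717 CPM (600) in putative ruptured libraries. After hCG they summed to 479 to 8119 CPM (1568) on the unruptured side and 113 to 452 CPM (171) on the ruptured side, so the sides overlapped without hCG and did not overlap post-hCG. Mfap5, Mfap4 and Ly6a were at 0 in every ruptured library post-hCG. The 10 immune markers summed to medians of 61.5 and 3.20 CPM without hCG and 23.1 and 2.59 CPM post-hCG, unruptured side first. Of the marker lists, 2 of 8 theca stroma genes tested, 2 of 5 theca steroidogenic genes, 3 of 11 granulosa genes and 1 of 6 cumulus genes were called lower. The share called lower over all genes tested was 4.65%. The 9 theca steroidogenic markers, with Cyp17a1 at 0 on the ruptured side post-hCG, summed to medians of 560 and 181 CPM without hCG and 622 and 1114 CPM post-hCG, unruptured side first. Their sum was thus higher on the ruptured side post-hCG, unlike that of the theca stroma markers. A sum weighs abundant members most: the 5 tested had a median side difference of -2.23 post-hCG, and the 8 theca stroma genes -4.03. No smooth muscle, endothelial, immune, oocyte or surface epithelium gene was called, with only 1 or 2 tested in each (edgeR, and 1 of these 8 genes at an unadjusted p under 0.05; DESeq2 and limma called none either). In bulk samples fewer cells of a type and less RNA per cell cannot be told apart. The part of theca and granulosa markers in the results below was not tested. Putative unruptured replicates 1 and 14 and putative ruptured replicate 4 stood apart: replicate 1 held oocyte markers at 402.6 CPM, against a group median of 23.6 CPM, and replicates 14 and 4 had the lowest median correlation with their own groups (0.916 each). Without these 3 libraries 1055 genes were called, 530 higher and 525 lower. The well codes in the labels place each group mostly in its own rows of a plate, so side and row cannot be told apart there. Only rows C and G hold both sides of 1 medium, post-hCG in row C and without hCG in row G (19 libraries). In those rows alone 12 genes were called, 3 higher and 9 lower, and 812 of 890 called genes kept the sign of their interaction. These 19 libraries were also in the fit that called the genes, so agreement in sign was partly built in. It does not settle the part of the rows, which was not tested.

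**Figure D2:**
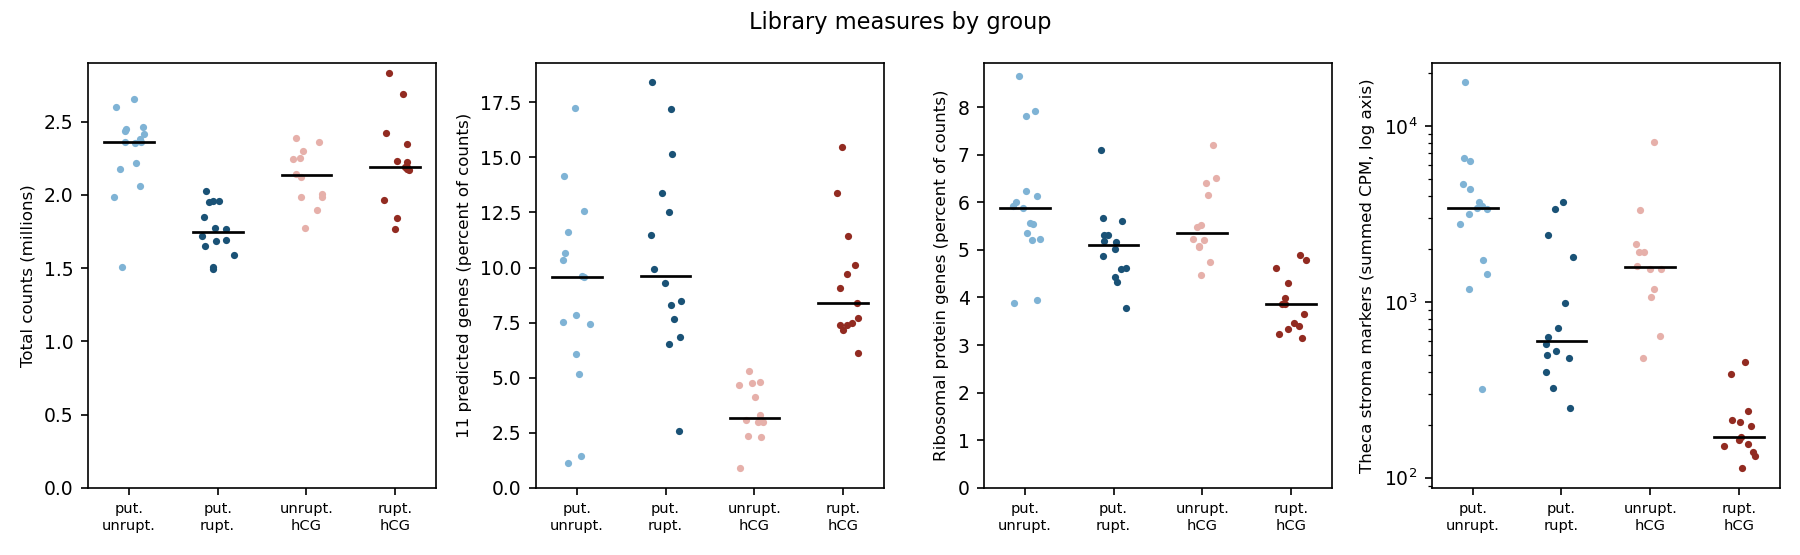
Library measures by group, 1 point per library with the median as a bar: total counts, share of counts in 11 predicted genes, share in ribosomal protein genes, and summed CPM of theca stroma markers on a log axis. On plain library totals the theca stroma markers do not overlap between the sides post-hCG (113 to 452 against 479 to 8119 CPM).

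Genes of the FSH-driven granulosa state included several that were higher on the putative ruptured side without hCG and had no side difference past the test post-hCG. Of 24 such genes tested, 6 were called lower and none higher, and in all 6 the side difference passed only without hCG. Over all genes tested 4.65% were called lower and 4.25% higher, the shares to set beside each list count here and below. The median interaction of the list was -0.71, against -0.01 over all genes. These 6 were Inhba, Inha, Gja1, Fshr, Nppc and Igf1. The 12 granulosa markers, which include Inha, Gja1 and Fshr, summed to medians of 13721 and 41900 CPM without hCG, unruptured side first. Post-hCG their medians were 3615 and 3220 CPM. Their part in these calls was not tested.

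Inhba (chr13:16011851-16031621) encodes the subunit shared by activin A and inhibin A. It ran from 22 to 925 CPM (median 54.8) in putative unruptured libraries and from 150 to 8152 CPM (2571) in putative ruptured ones. After hCG it ran from 33.1 to 53.5 CPM (39.2) on the unruptured side and from 34.5 to 162 CPM (64.8) on the ruptured side. Each of the 14 putative ruptured libraries exceeded the median of the opposite side and 9 exceeded its highest library, while post-hCG the sides still overlapped, 9 of 13 ruptured libraries being above the highest unruptured one. The side difference went from 4.44 to 0.90 on the log2 scale, an interaction of -3.54 ± 0.68 (SE, adjusted p = 0.000383, edgeR).

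Inha, the alpha subunit of inhibin, had a median of 4819 CPM on the putative unruptured side (1440 to 11811) and 19154 CPM on the putative ruptured side (6467 to 29751). Post-hCG the medians were 2771 CPM (1480 to 3675) and 2372 CPM (1964 to 3082), and the sides overlapped throughout. Its interaction was -1.78 ± 0.33 (adjusted p = 0.000237). Gja1, the gap junction protein connexin 43, had a median of 6402 CPM (3296 to 13450) and 18369 CPM (6120 to 27578) without hCG. With hCG its medians were 738 CPM (423 to 1378) and 792 CPM (615 to 953). Post-hCG the sides overlapped throughout, at lower medians than without hCG, and the interaction was -1.25 ± 0.28 (adjusted p = 0.00217).

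Fshr, the FSH receptor, had an interaction of -1.49 ± 0.45, and Nppc, the C-type natriuretic peptide that holds the oocyte in meiotic arrest, of -3.40 ± 1.06. Nppc rests on few counts post-hCG, where the ruptured side had a median of 0 CPM (0 to 1.14), and its call was lost without any of 4 unruptured libraries post-hCG (replicates 4, 6, 9 and 11). The call of Fshr was lost without unruptured replicate 11 post-hCG (adjusted p = 0.0517), and that of Igf1, a granulosa growth factor, without any of 10 libraries. With limma on log2(TPM + 1) 10 of the 24 genes were called lower. Other members of the inhibin, activin and AMH list, 12 tested, gave 1 further lower call, Smad3 (-0.78), a signal transducer of activin. Of 17 BMP pathway genes 5 were called lower, including the ligands Bmp2 (-1.66) and Bmp3 (-1.41) and the target Id3 (-1.05).

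Of 7 genes tested in estrogen and androgen synthesis edgeR called 3 lower and none higher: Cyb5a (-1.11), Hsd17b12 (-0.59) and Por (-0.53). Cyp19a1, the aromatase, and Hsd17b1, which makes estradiol, were looked at after their values were known. Cyp19a1 had an interaction of -2.86 ± 1.65 (adjusted p = 0.306) and Hsd17b1 of -2.97 ± 1.06 (adjusted p = 0.0641). Both of these had a side difference past the test only without hCG. DESeq2 called 5 of 8 genes of this list lower and limma 5 of 7. The call of Por was lost without any of 23 libraries.

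Cholesterol synthesis and uptake had mostly the same shape. Of 26 genes tested 11 were called lower (42.3%) and none higher, and 25 of the 26 had a negative interaction, with a median of -0.64. The median side difference of the list was 0.67 without hCG and 0.03 post-hCG, and in 9 of the 11 genes the side difference passed only without hCG. Acat2, which condenses acetyl-CoA at the start of the pathway, ran from 16.9 to 106 CPM (median 46.8) and from 27.9 to 287 CPM (83.5) without hCG, unruptured side first. The post-hCG ranges were 42.8 to 206 CPM (131) and 45.5 to 167 CPM (101), and 13 of 14 putative ruptured libraries exceeded the opposite median without hCG against 2 of 13 post-hCG. Its interaction was -1.53 ± 0.37 (adjusted p = 0.00521). Among the other enzymes, Fdft1, which makes squalene, had an interaction of -1.22, and Nsdhl, which acts late in the pathway, of -1.30. The count was 12 without the 3 libraries that stood apart and 10 to 14 under the other tools and scalings, and 0 in rows C and G alone.

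Cyp11a1, the enzyme that cuts the side chain of cholesterol to start progesterone synthesis, had a positive interaction (chr9:58006411-58027023). It ran from 110 to 2871 CPM (median 712) and from 35 to 1002 CPM (222) without hCG, unruptured side first. With hCG it ran from 5359 to 17714 CPM (9809) on the unruptured side and from 8259 to 20819 CPM (12961) on the ruptured side. The unruptured side was the higher one without hCG, and post-hCG 11 of 13 ruptured libraries lay above the unruptured median with 5 above its highest. The interaction was 2.07 ± 0.55 (adjusted p = 0.0114), while the post-hCG side difference of 0.38 ± 0.40 did not pass on its own. In the progesterone synthesis list 1 of 12 genes was called higher, Cyp11a1, and 1 lower, the cholesterol carrier Stard4 (-0.67), whose call was lost without any of 24 libraries. Star, which moves cholesterol into the mitochondrion and was looked at after its value was known, had 1.12 ± 0.53 (adjusted p = 0.182).

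Genes that LH induces in preovulatory granulosa cells went both ways. Of 28 tested, 5 were called lower and 3 higher, with a median of -0.11. Rgs2 ran from 27.2 to 232 CPM (median 54.6) and from 102 to 954 CPM (320) without hCG, unruptured side first. After hCG the ranges were 62.1 to 175 CPM (103) and 60.8 to 172 CPM (96.4), which overlapped fully. Its interaction was -2.41 ± 0.40 (adjusted p = 7.22e-05). Hif1a, the oxygen-regulated transcription factor, had the same shape at -1.06 (side difference 1.29 without hCG, 0.24 post-hCG).

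Hyaluronan genes included a crossover, a gene whose higher side changed with hCG. Gfpt2 ran from 12 to 53.2 CPM (median 25.8) and from 43.5 to 172 CPM (75.4) without hCG, unruptured side first. In the hCG groups it ran from 37 to 66.7 CPM (52.6) on the unruptured side and from 22.3 to 52.9 CPM (33.2) on the ruptured side. Each of the 14 putative ruptured libraries exceeded the opposite median, and post-hCG 1 of 13 ruptured libraries did so and 8 lay below the lowest unruptured library. The side difference turned from 1.65 ± 0.18 to -0.57 ± 0.19, an interaction of -2.22 ± 0.26 (adjusted p = 6.11e-08), and Gfpt2 was also called in rows C and G alone. Has2, the hyaluronan synthase of the expanding cumulus, had medians of 2.75 and 9.96 CPM without hCG and 0.857 and 0.400 CPM post-hCG, unruptured side first, with an interaction of -3.59 ± 0.72 (adjusted p = 0.000662). Post-hCG it held 28 and 8 counts in all, and its side difference there did not pass. In the list of 11 hyaluronan genes 3 were called lower and none higher, the third being Itih5 (-1.96), whose call was lost without any of 13 libraries.

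Prostaglandin genes gave 1 lower and 1 higher call of 12 tested, and EGF-like genes 2 lower calls of 9. Ptges, the inducible prostaglandin E synthase, ran from 15.2 to 38.9 CPM (median 23.2) and from 35.5 to 89.2 CPM (67.3) without hCG, unruptured side first, and from 28.1 to 47.7 CPM (34.2) and from 19.1 to 38.4 CPM (29.6) post-hCG. Of the 14 putative ruptured libraries 13 lay above every putative unruptured one, and post-hCG the sides overlapped. Its interaction of -1.63 ± 0.19 had the smallest adjusted p of the genes described here (3.52e-08). Ptges2, a membrane-associated prostaglandin E synthase, crossed in the other direction (-0.66 without hCG, 0.52 post-hCG, interaction 1.18). Ptgs2, the rate-limiting cyclooxygenase, was looked at after its value was known and had -0.87 ± 0.56 (adjusted p = 0.369). Areg had medians of 0.891 and 1.35 CPM without hCG and 11.8 CPM (2.12 to 32.2) and 2.85 CPM (1.06 to 13.2) post-hCG, so it was higher on the unruptured side post-hCG only (interaction -2.26 ± 0.67, adjusted p = 0.0238). The call of Areg was lost without putative ruptured replicate 4 or 12 (highest adjusted p 0.0651) and without the 3 libraries that stood apart (adjusted p = 0.0938). In rows C and G alone Areg was called at -4.53 (adjusted p = 0.0242), a larger value. None of the 9 EGF-like genes was called by edgeR without those 3 libraries.

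**Figure D3:**
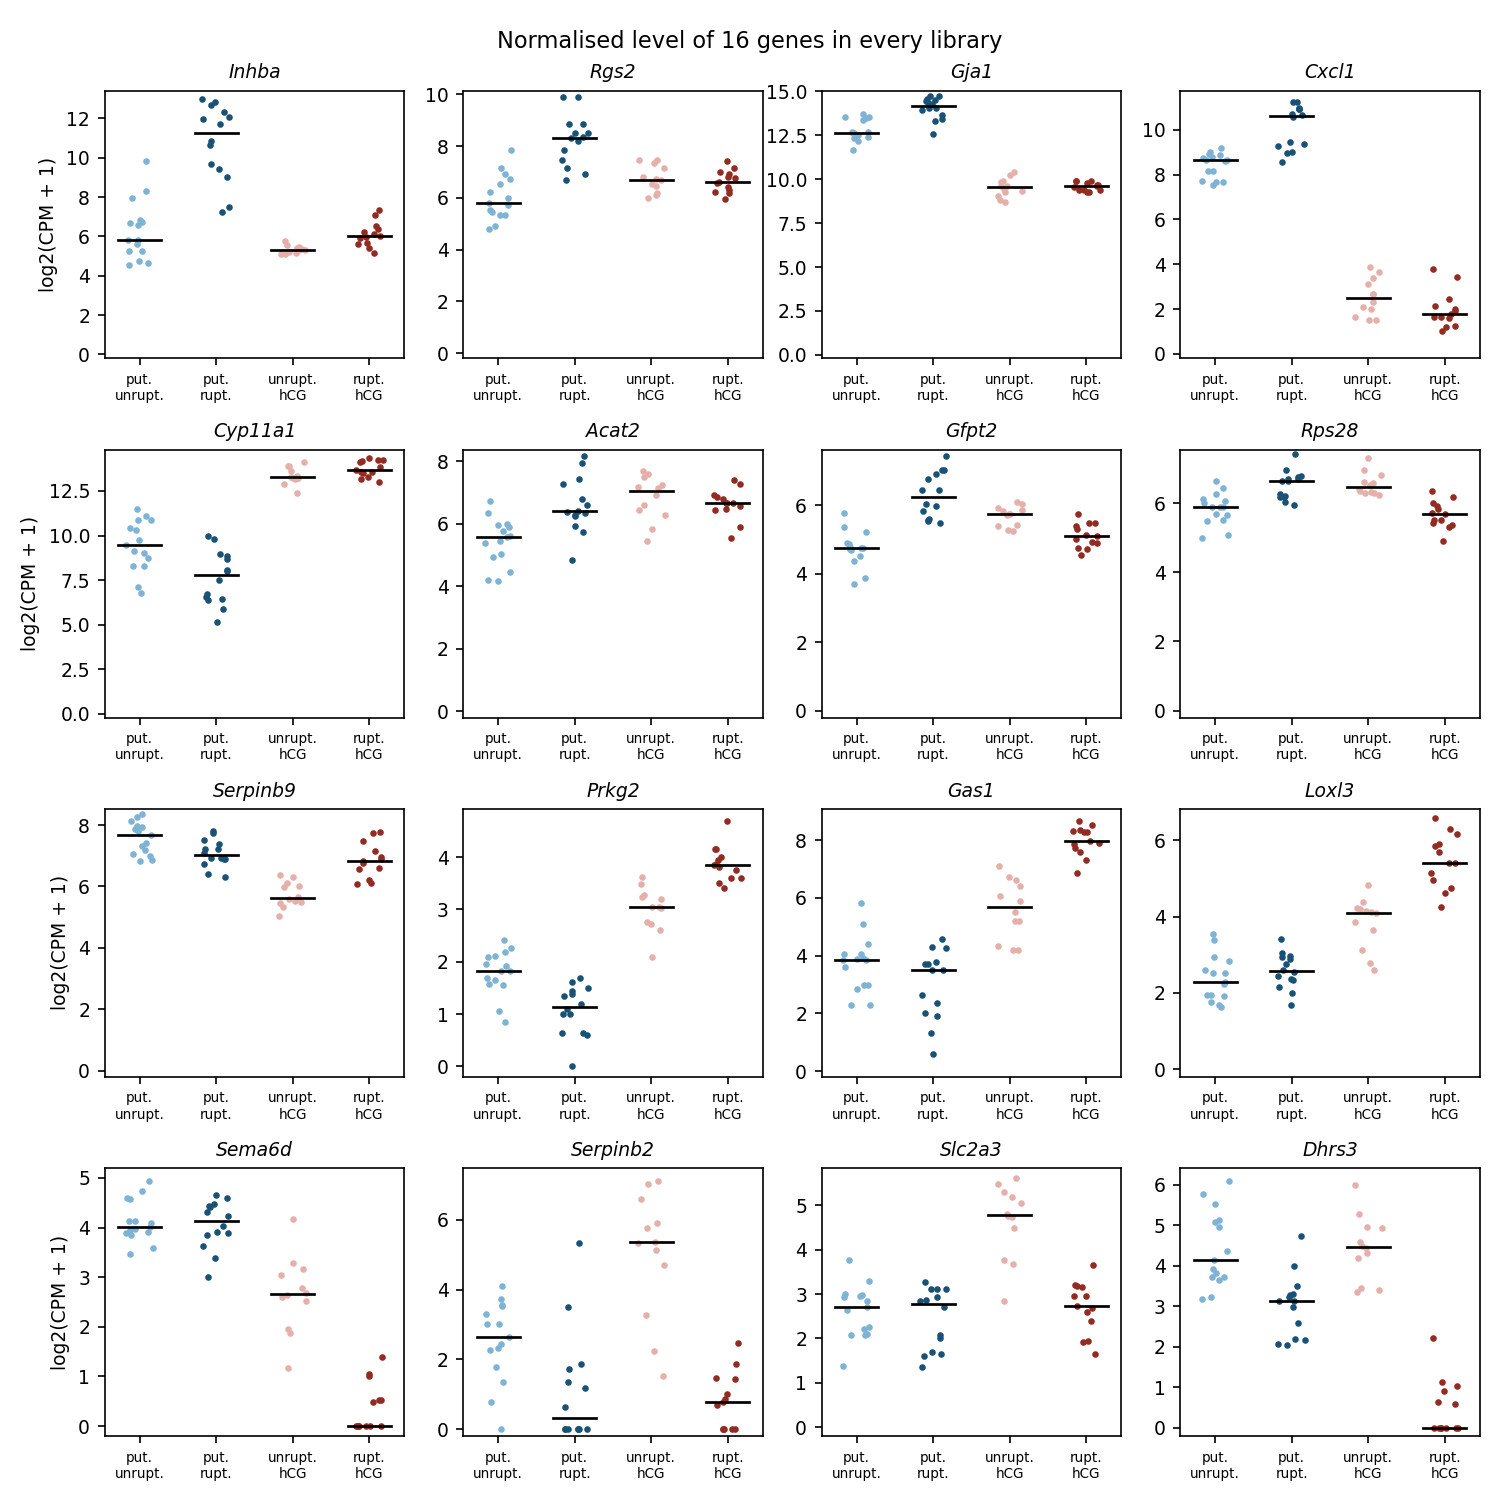
Normalised level of 16 genes in every library, as log2(CPM + 1), in the 4 groups: putative unruptured and putative ruptured side without hCG (blue), unruptured and ruptured side post-hCG (red), with bars at the medians. The side difference of Inhba, Rgs2, Acat2 and Gja1 passed the test only in the blue groups and that of Sema6d, Serpinb2 and Slc2a3 only in the red groups, and Gfpt2, Serpinb9, Prkg2 and Rps28 change the side on which they are higher.

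Crossovers in the higher direction were led by Serpinb9, an inhibitor of granzyme B, Prkg2, a cGMP-dependent protein kinase, Desi1, a deSUMOylating peptidase, and the splicing factor Srsf2. Serpinb9 ran from 112 to 327 CPM (median 203) and from 78.9 to 222 CPM (129) without hCG, unruptured side first, and from 32.2 to 81.6 CPM (48.1) and from 66.8 to 217 CPM (112) post-hCG. Prkg2 had medians of 2.56 CPM (0.804 to 4.33) and 1.21 CPM (0 to 2.22) without hCG and of 7.26 CPM (3.28 to 11.3) and 13.5 CPM (9.60 to 24.8) post-hCG. In both genes all 13 ruptured libraries lay above the unruptured median post-hCG, and 10 and 9 of them above its highest library. The interactions were 1.70 ± 0.26 for Serpinb9 and 1.96 ± 0.31 for Prkg2 (adjusted p = 1.87e-05 and 2.08e-05). Desi1 had 0.91 ± 0.15 and Srsf2 1.72 ± 0.30. Rpl9-ps6, with the largest interaction among higher genes (3.95 ± 0.85), carries the name of a pseudogene copy of a ribosomal protein gene, and how its reads were split from other copies is uncertain.

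Crossovers in the lower direction were led, after Gfpt2, by Tmsb10, Rps28 and Rps29. Tmsb10, an actin-binding thymosin, had medians of 180 CPM (105 to 277) and 261 CPM (168 to 563) without hCG and of 100 CPM (70.5 to 208) and 49.3 CPM (30.1 to 88.8) post-hCG, unruptured side first. Rps28, a protein of the small ribosomal subunit, had medians of 58.5 CPM (30.5 to 99.1) and 99.1 CPM (60.1 to 170) without hCG and of 87.9 CPM (73.6 to 156) and 50.1 CPM (29.0 to 80.9) post-hCG. In both genes 12 of 13 ruptured libraries lay below the lowest unruptured one post-hCG, with interactions of -1.84 ± 0.25 and -1.57 ± 0.22 (adjusted p = 1.11e-06 and 2.14e-06). mt-Atp8, a mitochondrially encoded subunit of ATP synthase that overlaps its neighbour mt-Atp6, ran from 137 to 327 CPM and from 330 to 811 CPM without hCG, where the sides did not overlap. Following hCG it ran from 79.3 to 350 CPM and from 67.1 to 165 CPM, and the interaction was -1.52 ± 0.23.

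Ribosomal protein and respiratory chain genes shared this direction as lists. Of 78 cytosolic ribosomal protein genes 18 were called lower (23.1%) and none higher, 15 of them with a side difference only post-hCG, and the list median was -0.23. Rps29 had an interaction of -1.43, Rpl41 of -1.08 and Rpl37a of -1.17. Of 81 nuclear genes of the respiratory chain 24 were called lower (29.6%) and none higher (median -0.26), among them Ndufv3 (-0.96), Ndufa6 (-0.998) and Cox4i2 (-2.05), and of 13 mitochondrial ones 2. Ribosomal protein genes took 3.89% to 8.65% of counts (median 5.88%) and 3.77% to 7.10% (5.10%) without hCG, and 4.48% to 7.2% (5.35%) and 3.15% to 4.89% (3.85%) post-hCG, unruptured side first. Scaled by library totals alone 34 ribosomal protein genes were called lower, and with limma on log2(TPM + 1) 14 respiratory chain genes. Ribosomal protein genes have many near-identical copies in the genome, among which the authors' counting could split reads.

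The share called lower was larger among short transcripts. Among ribosomal protein and respiratory chain genes with a median transcript length under 500 nt, 21 of 32 were called lower and the median interaction was -0.76, whereas at 500 nt or more 23 of 139 were (-0.16). Other genes under 500 nt gave 16 lower and 6 higher calls of 171, with a median of -0.01. The median length was 1410 nt over all tested genes, 933 nt for the genes called lower with a side difference only post-hCG and 1587 nt for those with one only without hCG. What part transcript length, RNA amount or amplification had in these calls was not tested.

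**Figure D4:**
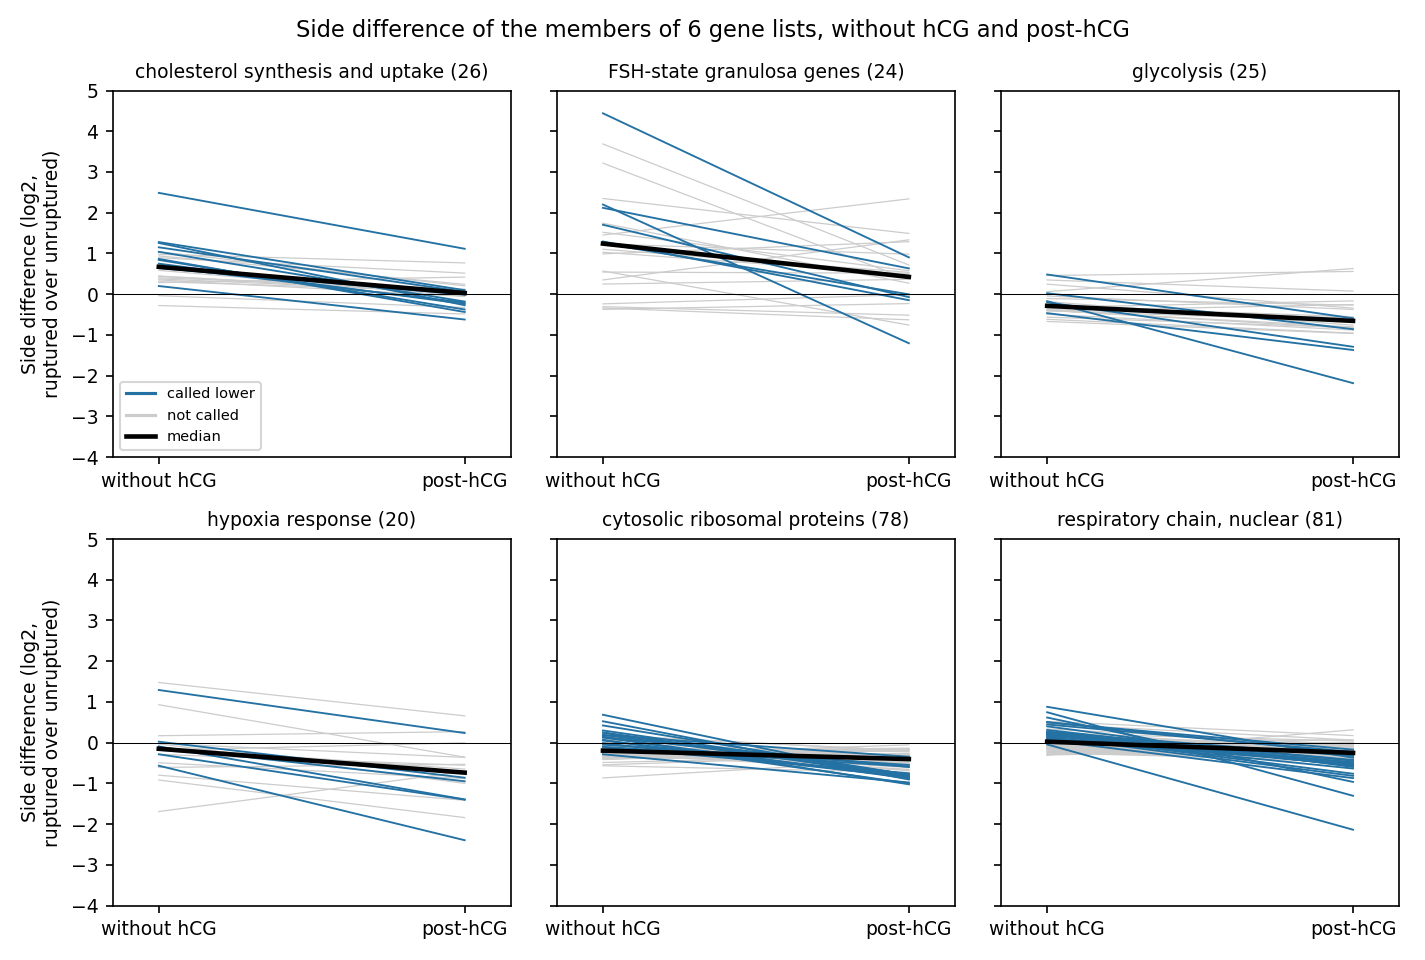
Side difference (log2, ruptured over unruptured) of each member of 6 gene lists, without hCG on the left and post-hCG on the right of each panel, with 1 line per gene. Blue lines are members called lower, grey lines are not called and the black line is the median; in cholesterol synthesis the median falls from 0.67 to 0.03, while in the hypoxia response it goes from -0.15 to -0.73.

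Hypoxia response and glycolysis genes that were called mostly had no side difference past the test without hCG and were higher on the unruptured side post-hCG. Of 20 hypoxia genes 6 were called lower and none higher (median -0.72), 5 of them with a side difference only post-hCG, and of 25 glycolysis genes 5 were called lower and none higher (median -0.33). Slc2a3, a high-affinity glucose transporter, ran from 1.61 to 12.6 CPM (median 5.55) and from 1.55 to 8.71 CPM (5.88) without hCG, unruptured side first. With hCG present it ran from 6.18 to 48.3 CPM (26.5) on the unruptured side and from 2.16 to 11.6 CPM (5.67) on the ruptured side. The unruptured side post-hCG had the highest levels, and 7 of 13 ruptured libraries lay below all of its libraries. The interaction was -2.01 ± 0.39 (adjusted p = 0.000423).

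Slc16a3, which exports lactate, had medians of 94.0 and 76.6 CPM without hCG and 609 CPM (333 to 824) and 239 CPM (171 to 369) post-hCG (interaction -1.09 ± 0.33). Higd1a, a hypoxia-induced mitochondrial protein, had medians of 20.1 and 22.4 CPM without hCG and 74.1 CPM (37.7 to 115) and 28.5 CPM (18.3 to 50.7) post-hCG (interaction -1.30 ± 0.25). For each of the pair 12 of 13 ruptured libraries lay below every unruptured one post-hCG. Bnip3l, a mitophagy receptor, had -0.83, and Slc2a1, whose promoter is printed above, -0.88 ± 0.27. The call of Slc16a3 was lost without putative ruptured replicate 12 (adjusted p = 0.0503), and that of Slc2a1 without unruptured replicate 9 post-hCG (adjusted p = 0.0512) and without the 3 libraries that stood apart (adjusted p = 0.0731). With limma on log2(TPM + 1) 9 hypoxia and 10 glycolysis genes were called lower, and without the 3 libraries 4 hypoxia genes. The hypoxia core was in 75.0% of the 16 promoters of the hypoxia list and in 62.5% of the 24 of the glycolysis list, against 30.4% of all. These shares cover list members called or not, and among all genes called lower the share was 29.8%.

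Several genes with large lower interactions were close to 0 on the ruptured side post-hCG. Sema6d, a membrane-bound semaphorin, had overlapping sides without hCG, at 10 to 29.9 CPM (median 15.1) and 6.98 to 24.4 CPM (16.6), and post-hCG ran from 1.24 to 16.9 CPM (5.36) on the unruptured side and from 0 to 1.63 CPM (0) on the ruptured side. In 12 of 13 ruptured libraries it lay below every unruptured one, and the 13 libraries held 11 counts in all. Its interaction was -3.63 ± 0.46 (adjusted p = 3.81e-07). Serpinb2, plasminogen activator inhibitor 2, had medians of 5.20 and 0.278 CPM without hCG and of 39.9 CPM (1.85 to 138) and 0.721 CPM (0 to 4.50) post-hCG. Its side difference without hCG, -0.69 ± 0.61, did not pass, 11 of 13 ruptured libraries lay below every unruptured one post-hCG, and the interaction was -4.97 ± 1.02 (adjusted p = 0.000895).

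Dhrs3, a retinal reductase, differed between sides in both media, and more so post-hCG. It had medians of 16.7 CPM (8.04 to 67.9) and 7.78 CPM (3.10 to 25.7) without hCG and of 21.1 CPM (9.27 to 63.1) and 0 CPM (0 to 3.66) post-hCG, where the sides did not overlap. Its interaction was -3.40 ± 0.66 (adjusted p = 0.000427). Aldh1a1, which makes retinoic acid, followed it at -2.33 ± 0.76, and 3 of 11 retinoid genes were called lower. The call of Aldh1a1 was lost without any of 22 libraries. Pdgfra, a stromal growth factor receptor (-2.27), also differed in both media, and its call was lost without any of 19 libraries. Insl3, a theca hormone (-4.33, 7 counts in 2 ruptured libraries post-hCG), passed only post-hCG, and its call was lost without any of 30 libraries. Akr1b7, an aldo-keto reductase of steroidogenic cells, had medians of 213 CPM (13.2 to 697) and 9 CPM (4.07 to 17.7) post-hCG and an interaction of -2.96 ± 0.95, with adjusted p = 0.237 without the 3 libraries that stood apart. The call of Akr1b7 was lost without any of 6 libraries, with -2.22 (adjusted p = 0.198, edgeR) without putative ruptured replicate 4. In rows C and G alone Akr1b7 was called at -6.34 (adjusted p = 0.00222). The summed theca stroma markers, given above, differed between the sides in the same libraries, and their part in these values was not tested.

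Adhesion, matrix and immune signaling genes were mixed. Thbs1, the matrix protein thrombospondin 1, had medians of 2418 and 4095 CPM without hCG and of 53.6 CPM (22.1 to 997) and 35.8 CPM (6 to 78.8) post-hCG, with an interaction of -3.51 ± 0.65. Vcam1, an adhesion molecule, had medians of 684 and 408 CPM without hCG and of 11.3 CPM (2.12 to 75.0) and 1.06 CPM (0 to 7.33) post-hCG (-3.08 ± 0.67). Cxcl1, a neutrophil chemoattractant, had medians of 402 CPM (185 to 576) and 1584 CPM (384 to 2434) without hCG and of 4.66 and 2.45 CPM post-hCG (-2.55 ± 0.49, adjusted p = 0.000413). All 3 had lower medians on both sides post-hCG than without hCG, so their post-hCG side differences rest on low levels. Of 16 chemokine and acute-phase genes 2 were called lower and 1 higher, Cx3cl1 (0.85). Adamts2, a procollagen protease, and Itga6, a laminin receptor subunit, had no overlap between sides post-hCG and interactions of -1.54 and -1.27.

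Genes that gained on the ruptured side were led, after those above, by Gas1, a membrane protein that binds Hedgehog ligands. It ran from 3.84 to 55.1 CPM (median 13.4) and from 0.517 to 22.6 CPM (10.3) without hCG, unruptured side first. Post-hCG it ran from 17.2 to 136 CPM (51.1) on the unruptured side and from 116 to 407 CPM (252) on the ruptured side, where 12 of 13 libraries lay above every unruptured one. The side difference without hCG, -0.69 ± 0.36, did not pass, and the interaction was 2.84 ± 0.49 (adjusted p = 9.72e-05).

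The listed Wnt pathway genes had 4 of 21 members called higher and none lower (median 0.50). Frzb, a secreted frizzled-related protein outside this list, was called lower (-3.18). It was named after its value was seen. Porcn, which acylates Wnt ligands, had medians of 1.80 and 1.05 CPM without hCG and of 16.7 CPM (6.4 to 35.8) and 52.0 CPM (13.5 to 197) post-hCG (1.86 ± 0.58). Its call was lost without putative unruptured replicate 7 (adjusted p = 0.0574). Sfrp2, a secreted Wnt modulator, had medians of 27.0 and 15.7 CPM without hCG and of 136 CPM (55.4 to 327) and 389 CPM (143 to 708) post-hCG (1.79 ± 0.48). In both genes the ruptured side had the highest median post-hCG, and the other called members were Lgr4, an R-spondin receptor (0.63), and Axin2, a Wnt target, which falls outside the naming rule and was named after its value was seen (1.26). With limma on log2(TPM + 1) 2 of the 21 were called.

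Matrix genes called in this direction included the lysyl oxidases Loxl3 and Lox, which crosslink collagen, and basement membrane proteins. Of 15 interstitial collagen and lysyl oxidase genes 2 were called higher and 1 lower. The median interaction of that list was negative (-0.75), and 8 of its 15 genes had a negative value. Loxl3 had medians of 3.86 and 4.95 CPM without hCG and of 16.2 CPM (5.03 to 27.3) and 41.6 CPM (18 to 94.5) post-hCG, so that 10 of 13 ruptured libraries lay above every unruptured one post-hCG and none did so without hCG (1.57 ± 0.37, adjusted p = 0.0037). Lox had 1.88 ± 0.49 with the same shape, while Col16a1, a fibril-associated collagen of the same list, was called lower (-2.07). Of 15 basement membrane genes 2 were called higher and none lower, Col18a1 (1.46), the source of endostatin, and Lamc1 (0.70), a laminin chain. With limma on log2(TPM + 1) none of these 15 genes and none of the 15 interstitial collagen and lysyl oxidase genes was called, with adjusted p = 0.121 for Loxl3, 0.117 for Lox, 0.0759 for Col18a1 and 0.768 for Lamc1. Tinagl1, a matrix glycoprotein, and Mmp19, a metalloproteinase, were higher on the putative unruptured side without hCG and close to even post-hCG (side differences -0.10 and 0.02). Tinagl1 had medians of 106 CPM (31.6 to 164) and 27.7 CPM (8.00 to 54.9) without hCG and of 839 CPM (666 to 1089) and 748 CPM (465 to 1065) post-hCG (1.83 ± 0.33). Mmp19 had 1.43 ± 0.36.

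Among other lists, antioxidant genes gave 7 lower and 3 higher calls of 30, with Sod3 (-1.76), Gsta4 (-2.15) and Hmox1 (-1.03) lower and Gss (0.75), which makes glutathione, higher. Insulin and IGF family genes gave 5 lower calls of 16, including Igfbp5 (-1.73) and Igf2r (-0.88), and ADAMTS proteases 3 of 8. Of these 3, Adamts10 lost its call without any of 11 libraries and Adamts7 without any of 10. DNA replication genes gave 1 lower call of 34 and metallothioneins and zinc transporters none of 14 (4 at an unadjusted p under 0.05, and none by DESeq2 or limma), and proteasome subunits 1 in each direction of 42. Serpins and plasminogen activators gave 2 in each direction of 13, and semaphorins, plexins and Eph receptors 4 lower and 2 higher of 32, with Efnb1 (1.20) higher.

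**Figure D5:**
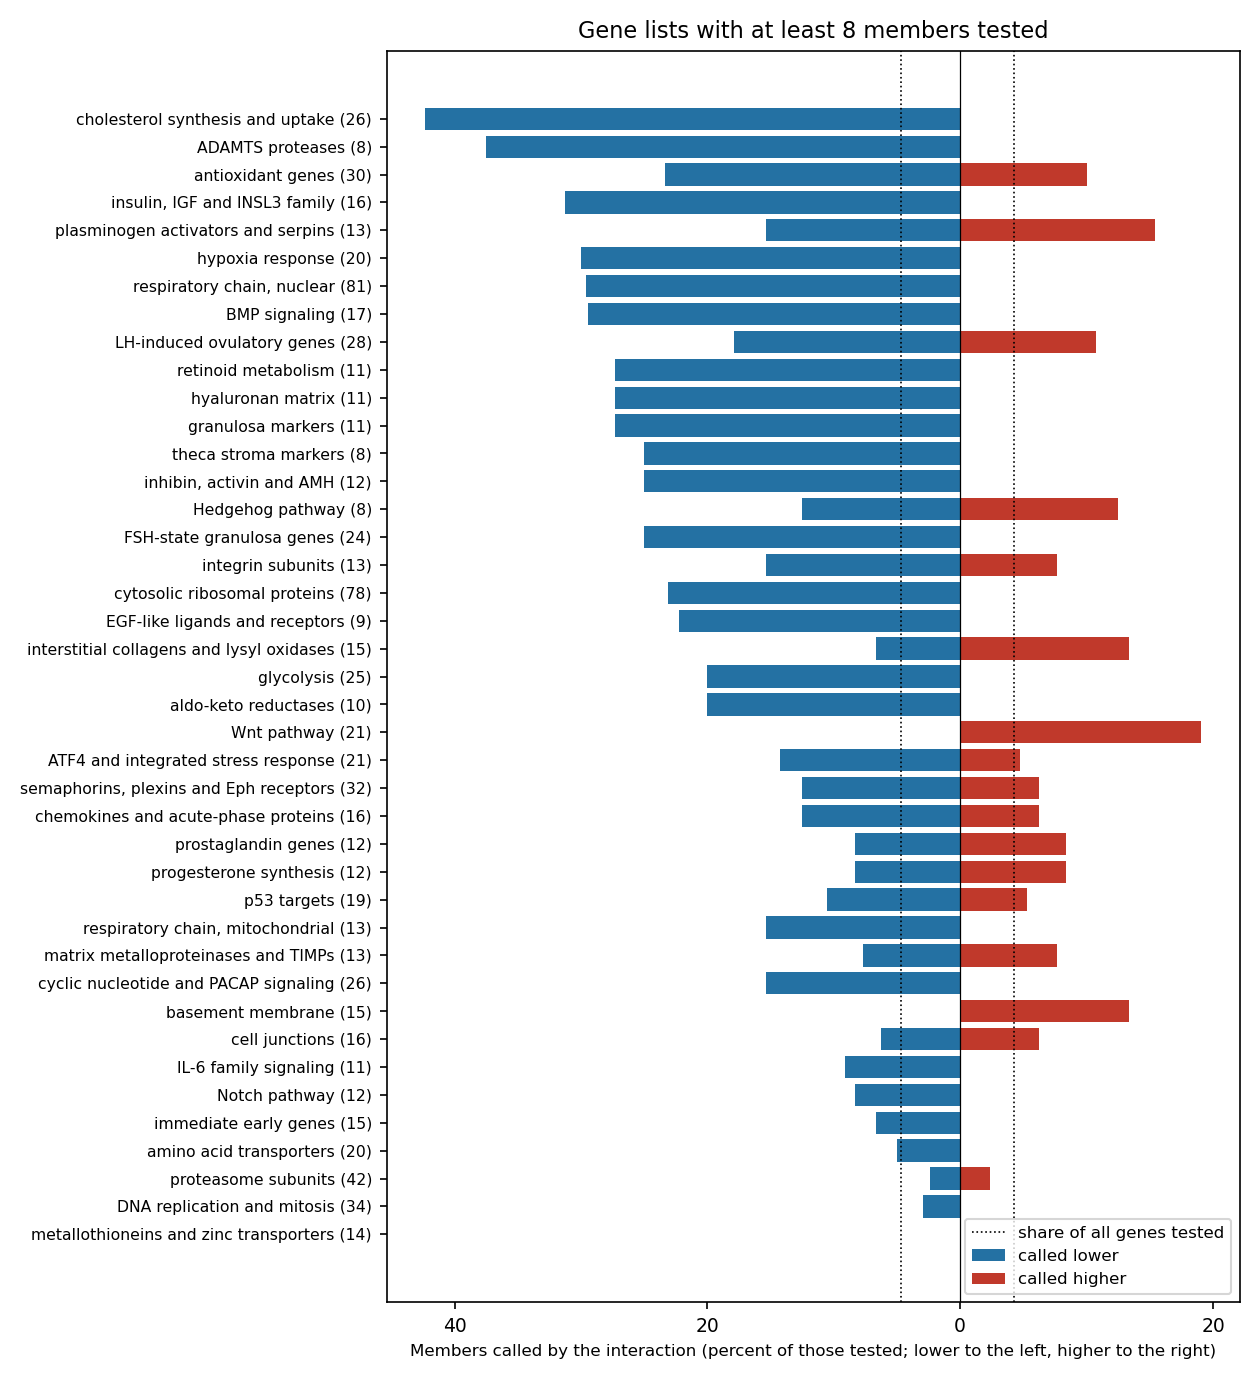
Share of members called by the interaction in each gene list with at least 8 members tested, lower to the left and higher to the right, with the number tested in parentheses. Dotted lines mark the shares over all genes, 4.65% lower and 4.25% higher. Cholesterol synthesis and uptake reaches 42.3% to the left. The listed Wnt pathway genes, which leave out Frzb, have 4 of 21 to the right and none to the left.

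Some calls in the higher direction rest on single libraries or repeated loci. Of the 12 largest higher interactions 10 belong to genes that carry only a clone name (RP23 or RP24), and of all 426 called higher genes 12 had over 0.5 of their putative unruptured counts in replicate 1. RP24-149G20.1 ran from 2.84 to 972 CPM (median 8.60) on the putative unruptured side, where the highest library was replicate 1, and its interaction went from 3.45 to 0.64 without that library (adjusted p = 0.541). A further 11 predicted genes rose and fell together over the libraries, 2 at chr2:98662237-98667301 and 9 at chr9:3000922-3038316. They took 1.14% to 17.3% of counts (median 9.59%) and 2.58% to 18.4% (9.61%) without hCG, and 0.918% to 5.32% (3.17%) and 6.13% to 15.5% (8.37%) post-hCG, unruptured side first. All 11 were called higher, with interactions of 1.12 to 1.41, and their summed share did not overlap between the sides post-hCG. With their counts left out 878 genes were called, 419 higher and 459 lower.

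Complete separation of the sides post-hCG was rare. Every ruptured library lay above every unruptured one in 22 of the genes tested (0.22%) and below in 48 (0.479%). Among the 426 called higher it was above in 16, of which 10 were the predicted genes just described and the others Psap, Mtus1, Acsl1, Slc12a7, Gnao1 and Adam22, named after their values were seen. Among the 466 called lower it was below in 21. Without hCG, every putative ruptured library lay above every putative unruptured one in 5 of the 10013 genes tested and below in 0. Among them were 4 genes called lower, mt-Atp8, Serpine2, Tlcd1 and Zcchc11, the last 2 named after their values were seen. The call of Serpine2 was lost without unruptured replicate 8 or 11 post-hCG or putative ruptured replicate 13.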

How the data were processed

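The authors made paired-end Smart-Seq2 libraries, aligned them to GRCm38 with HISAT2 and applied ComBat-seq to the counts. The deposited table gives, for each gene, an estimated count that the authors derived from the aligned reads and that need not be whole, and the deposited TPM table holds the same genes scaled by length and library by the authors. The counting program, annotation and batches are not given in the sources used here, nor whether either table precedes the batch correction, which can remove or add group differences.

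These were rounded to whole numbers. Genes were kept by filterByExpr on the 4 groups (at least 10 counts, and 15 in total), TMM factors were computed, and the model was fitted in edgeR 4.0.16 (R 4.3.3) with 1 coefficient per group, no covariate, two-sided quasi-likelihood F-tests and Benjamini-Hochberg adjustment over 10013 genes (FDR 0.05). The biological coefficient of variation was 0.258. CPM values of single genes use TMM-scaled totals, and marker sums use plain library totals. The method was tested on simulated data. Total counts ran from 1497071 to 2834734 per library, and ranges cover counting and biological spread together. No pair of libraries of the same group agreed within sampling noise, and pairs across groups were not compared.

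Genes named are, among called genes with a mean of at least 10 CPM in the highest group and a count in at least 0.5 of its libraries, the 12 with the largest interaction in each direction, the 4 with the smallest p in each opposite class, and up to 4 called members per list with the smallest p. Others are said to be named after their values were seen. Members, lists and tests were chosen with earlier results of these data known, so list counts are descriptions and no set was tested. Positions and transcript lengths come from GENCODE vM21 and promoters from RefSeq, both GRCm38. Alternatives were DESeq2 1.42.0, RLE factors or plain library totals in place of TMM, no filter on low counts, a mean of at least 20 counts, limma 3.58.1 on log2(TPM + 1), thinned counts, the replicate number as a block, the well rows that hold both sides, refits without each library, and summed TPM for marker lists. Leaving out 3 libraries or 11 predicted genes was added after the data had been seen. Some genes that the naming rule selects are not reported here.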

Additional observations from a re-analysis of the deposited data

Results flagged for a closer look

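The interaction is a test of whether the side difference differs between the media, and each result here was taken up because that test passed. Of the 10013 genes tested 892 passed, 426 higher and 466 lower, and in 62 of them the sides differed in opposite directions in the 2 media, each past its own threshold. Among the named genes of this kind, those higher on the ruptured side post-hCG were Rpl9-ps6 (interaction 3.95), Grsf1 (2.10), Prkg2 (1.96), Srsf2 (1.72), Serpinb9 (1.70), Ptges2 (1.18) and Desi1 (0.91), all on the log2 scale. Those lower were Nrep (-2.94), Gfpt2 (-2.22), Tmsb10 (-1.84), Rps28 (-1.57), mt-Atp8 (-1.52), Rps29 (-1.43) and Ndufa6 (-0.998). Each of these 14 kept its call in all 54 fits that left out 1 library.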

How the results depend on the processing

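Against 892 calls (426 higher, 466 lower), DESeq2 gave 971 (461 and 510), RLE size factors 896 (438 and 458), no filter 706 (354 and 352), a mean of at least 20 counts 876 (432 and 444), thinned counts 713 (336 and 377), the added fit without 3 libraries 1055 (530 and 525) and that without 11 predicted genes 878 (419 and 459). The share of calls in the higher direction, 47.8% in the fit reported, was 25.8% with library totals only (890 calls, 230 higher and 660 lower), where the median of all genes shifted by -0.113, and 11.2% with limma on log2(TPM + 1) (775 calls, 87 higher and 688 lower; median -0.179). The balance of directions thus depends on the scaling. Under these scalings 892 and 882 of the 892 called genes kept their sign. These genes were selected on the same libraries, and the smallest called interaction was 0.31 in size. Few signs could therefore turn, and their agreement is a weak check. With limma 72.6% of the reported calls had an unadjusted p under 0.05. Of 132 named genes the call was lost in 40 with limma, 29 with no filter, 23 with thinned counts, 16 without the 3 libraries, 10 with DESeq2, 6 with library totals only and 1 without the predicted genes. Leaving out each library in turn gave 793 to 999 calls, 369 to 493 higher and 407 to 506 lower, and 94 of 132 named genes kept their call in every such fit. In rows C and G alone 12 genes were called, 3 higher and 9 lower, with 33.7% of the reported calls at an unadjusted p under 0.05. The fit has 19 libraries, and the cause of the drop was not tested. There the interaction turned sign for RP24-560A18.3 (-0.12), RP23-309H21.1 (-0.0641), Hddc3 (-0.50), Psme3 (-0.0205), Crabp2 (0.22), Adamts10 (0.0871), Il11ra1 (0.18), Sema5a (0.39) and Fbln1 (0.47), and no named gene turned sign under any other setting. In these rows 120 named genes were no longer called, 3 kept their call (Gfpt2, Areg and Akr1b7) and the 9 above turned sign. With the replicate number as a block 992 genes were called (457 and 535), and 20 named genes lost their call. The numbers gave no clear sign of pairing the sides. In their deviations from the group means, same-numbered libraries correlated at -0.23 to 0.39 without hCG (14 pairs, 2 over 0.1) and at -0.18 to 0.23 post-hCG (12 pairs, 3 over 0.1). Of these libraries 2 and 3 correlated best with their own number. A small effect shared by the sides of 1 follicle could be missed, so pairing is not excluded. Summed TPM of the theca stroma markers kept the order of the groups, with medians of 556, 144, 324 and 45.0. Post-hCG these TPM sums did not overlap between the sides (111 to 1445 unruptured, 25.6 to 90.3 ruptured). Depth limits genes near the filter, such as Nppc, Insl3 and RP23-162H6.1, the last with 2 counts on the ruptured side post-hCG and therefore given no fold.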
